A study of Homo sapiens with 6 samples.

Results

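The transcripts described here encode splicing factors, namely the heterogeneous nuclear ribonucleoproteins (HNRNP), the serine- and arginine-rich SR proteins (SRSF), the small nuclear ribonucleoprotein proteins (SNRP), the SF3A and SF3B subunits, the U2 auxiliary factor U2AF, and the PRPF proteins together with the kinase PRP4K. Members were all probe sets whose single gene symbol in the platform annotation carried one of these prefixes or was PRP4K. They came to 127 probe sets of 59 genes, of 22215 probe sets and 11963 named genes in all. By family there were 49 probe sets of 19 HNRNP genes, 26 of 9 SRSF genes, 16 of 11 SNRP genes, 15 of 8 SF3A and SF3B genes, 4 of 2 U2AF genes and 17 of 10 PRPF genes with PRP4K. Among the HNRNP symbols, HNRNPA3P1 (206808_at) names a pseudogene and not a splicing factor, and was kept because it carries the prefix. Each of 36 genes had at least 2 probe sets and 23 genes had 1. Another 19 probe sets were left out because the annotation gave them several symbols.

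The series holds 6 Affymetrix oligonucleotide arrays, each carrying RNA from the human neuroblastoma line SH-SY5Y, which is in common use as a neuronal model. In the 3 flasks of the group Bf 140 nM the medium held unconjugated bilirubin (UCB), the breakdown product of heme that harms neurons, at a free concentration (Bf) of 140 nM. In the 3 flasks of the group DMSO 0.6% it held the solvent alone, and both groups were collected after 4 h. The single line, grown in serum and taken at 1 time and 1 dose, is the limit of the model. Values are normalised levels on a generalised log2 scale, and every difference below is Bf 140 nM minus DMSO 0.6% on that scale.

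Pre-mRNA splicing removes introns through 2 chemical steps in the spliceosome, a machine of small nuclear RNAs and proteins. The U1 particle pairs with the start of an intron, U2AF binds the pyrimidine tract and the AG at its end, and the U2 particle with its SF3A and SF3B subunits settles on the branch point. The U4/U6.U5 tri-snRNP then joins with PRPF proteins such as PRPF8, PRPF31 and PRPF6. SR proteins bind exons and mostly promote their inclusion, whereas many HNRNP proteins bind exons or introns and promote skipping. Genes of both families are themselves heavily spliced, often with ultraconserved exons that carry premature stop codons, so probe sets of one gene can read different transcripts.

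The arrays were compared first, because 2 of them were low for many well-expressed probe sets, these among them. Of the noradrenergic markers of the line, 5 of the 7 on the array had their brightest probe set above the median probe set, as did 4 of 8 mesenchymal or Schwann-like markers. Control probe sets near the 3' end of beta-actin exceeded those near its 5' end, an excess that grows as labelled transcripts get shorter, by 0.24, 0.49 and 0.89 for Bf 140 nM replicates 1, 2 and 3 and 0.10, 0.32 and 2.21 for DMSO 0.6% replicates 1, 2 and 3. For GAPDH the excess was 1.30 on DMSO 0.6% replicate 3 and between 0.10 and 0.38 on the other arrays. The splicing probe sets were mostly well expressed, with 116 of 127 (91.3%) above the median probe set. Their median departure from their own mean over the 6 arrays was -0.17 on DMSO 0.6% replicate 3 and -0.14 on Bf 140 nM replicate 2, and between 0.05 and 0.08 on the other 4. Over all probe sets these medians lay between -0.03 and 0.02, but over those above the median level the same 2 arrays were low, at -0.10 and -0.09, and for the other splicing genes described last they were at -0.11 and -0.14.

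**Figure D1:**
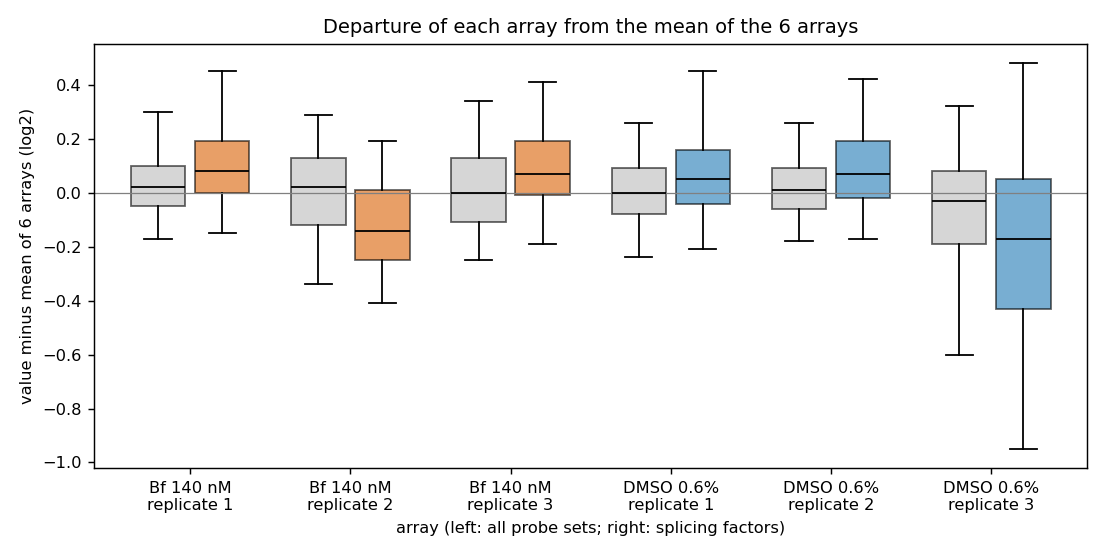
Departure of each probe set from its own mean over the 6 arrays (log2, vertical axis) on each array (horizontal axis), for all probe sets (grey) and for the 127 splicing probe sets (orange, Bf 140 nM; blue, DMSO 0.6%). Lines are medians, boxes the quartiles and whiskers the 5% and 95% quantiles. The splicing medians lie at -0.14 on Bf 140 nM replicate 2 and at -0.17 on DMSO 0.6% replicate 3, whose box is the tallest, and above 0 on the other arrays.

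The main question was whether splicing factor transcripts differed after 4 h of UCB. No splicing probe set passed the adjusted threshold of 0.10 in limma, where 0 of all 22215 probe sets passed. None reached an unadjusted p of 0.05 by limma either, against 17 (0.0765%) over all probe sets. With the replicate number as a block none of the 127 did, beside 0.414% of all. Shares this small leave little room for any member, so the absence is not read as a result about splicing factors. The SEs and confidence intervals given below are from the unpaired fit. The differences ran from -0.26 for SRSF11 (200686_s_at) to 0.41 for SRSF1 (201742_x_at), with a median of 0.05 beside 0.03 over all probe sets. There were 84 of 127 (66.1%) above 0, beside 63.2% of all and 70.2% of those above the median level, whose median difference was also 0.05. Without DMSO 0.6% replicate 3 the splicing median was -0.07. The adjusted p by limma was 1.00 for every splicing probe set.

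The data bounded these differences less closely than those of the array as a whole. The 95% confidence interval lay inside a 2-fold change either way for 119 of the 127 probe sets, a smaller share than the 97.8% of all probe sets. It lay inside a 1.5-fold change for 85, again a smaller share than the 85.7% of all. Among the 11107 probe sets above the median level it lay inside a 2-fold change for 10654 and inside a 1.5-fold change for 8398, also larger shares. The median SD over the splicing probe sets was 0.21 in Bf 140 nM and 0.23 in DMSO 0.6%, beside 0.15 and 0.14 over all. Above the median level, where most splicing probe sets lay, the median SDs were 0.19 and 0.20, close to the splicing values.

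**Figure D2:**
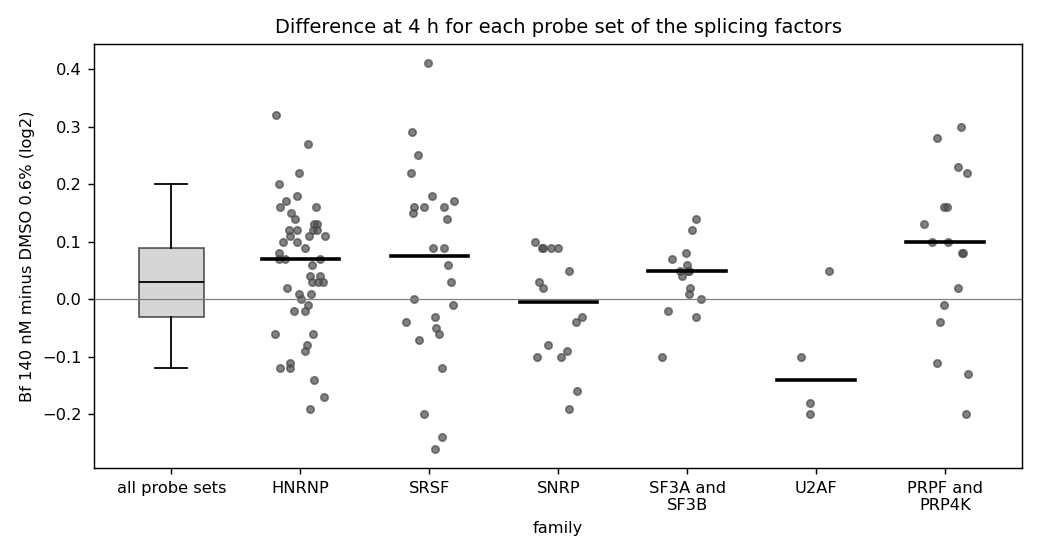
Difference between Bf 140 nM and DMSO 0.6% (log2, vertical axis) for each splicing probe set (points) by family (horizontal axis), with family medians as black lines. The grey box gives the quartiles of all 22215 probe sets and its whiskers the 5% and 95% quantiles. Family medians run from -0.14 for U2AF to 0.10 for PRPF and PRP4K, and SRSF holds both the lowest point, -0.26, and the highest, 0.41.

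In only 2 splicing probe sets did the groups not overlap, both lower in Bf 140 nM. They belong to U2AF2, the large U2AF subunit that binds the pyrimidine tract, and to PRP4K. The latter is a kinase of the tri-snRNP that phosphorylates PRPF6 and PRPF31. Over all probe sets 0.981% were lower without overlap and 1.68% were higher. The 2 are too few to compare with these shares, and are not read as a result about splicing factors or any family of them. The 218381_s_at probe set of U2AF2 read 10.38, 10.20 and 10.32 in Bf 140 nM and 10.45, 10.66 and 10.39 in DMSO 0.6%. Its groups were thus parted by 0.01, and the difference of -0.20 (SE 0.11, 95% CI -0.46 to 0.06) had an unadjusted p of 0.112 by limma. The 202126_at probe set of PRP4K read 9.93, 9.80 and 10.01 in Bf 140 nM and 10.19, 10.07 and 10.07 in DMSO 0.6%. Its difference of -0.20 (SE 0.10, 95% CI -0.44 to 0.04) had the lowest unadjusted p of all splicing probe sets in the unpaired fit, 0.0916 by limma. By limma with the replicate number as a block its unadjusted p was 0.114, and SRSF11 (200686_s_at) had the lowest, 0.0775.

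The other probe sets of these genes did not part the groups. For U2AF2, 218382_s_at read 8.49, 8.82 and 8.27 against 8.97, 9.05 and 8.10, a difference of -0.18 (SE 0.27). The dim 214171_s_at read 7.48, 7.54 and 7.37 against 7.36, 7.29 and 7.59, a difference of 0.05 (SE 0.12). The small subunit U2AF1, which reads the AG at the end of the intron, had 12.42, 12.16 and 12.40 against 12.51, 12.35 and 12.42 on 202858_at. It was lower in each of the 3 pairs of equal replicate number, by -0.09, -0.19 and -0.03, with a difference of -0.10 (SE 0.11, 95% CI -0.36 to 0.16). A near-identical copy of U2AF1 exists in some genome assemblies, so this probe set may read both.

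For PRP4K, 202127_at read 9.28, 9.03 and 9.49 in Bf 140 nM and 9.25, 9.17 and 9.50 in DMSO 0.6%, a difference of -0.04 (SE 0.15). The third probe set, 211090_s_at, read 10.19, 9.63 and 9.35 against 10.08, 10.22 and 8.05, a difference of 0.28 (SE 0.56). Its DMSO 0.6% replicate 3 was the lowest of the 6 arrays by more than 1 log2 unit. Without that array the difference of 211090_s_at was -0.43.

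**Figure D3:**
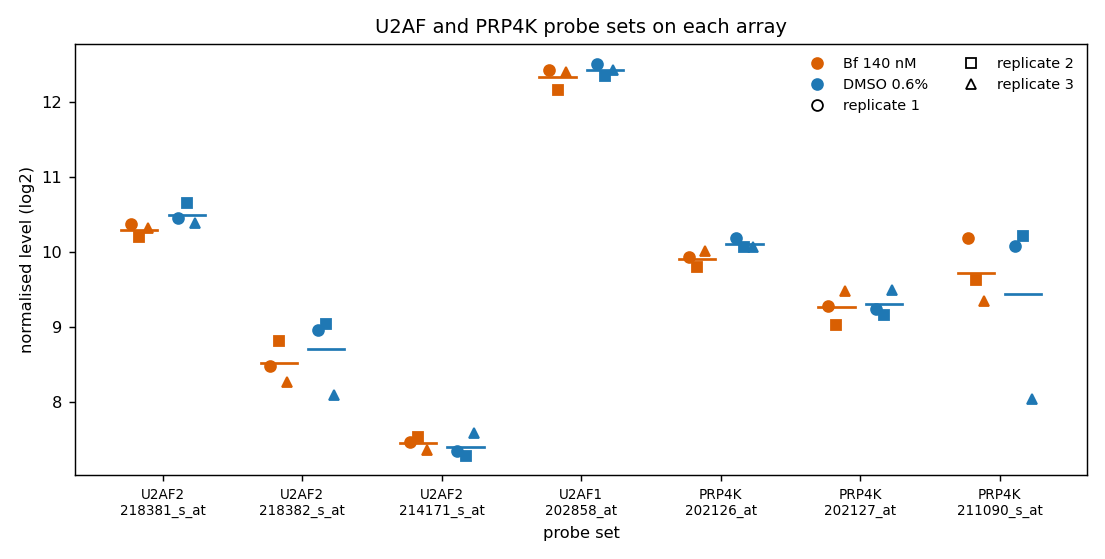
Normalised level (log2, vertical axis) on each of the 6 arrays for the 4 U2AF and 3 PRP4K probe sets (horizontal axis); orange marks Bf 140 nM, blue DMSO 0.6%, the shapes the replicate numbers and the lines the group means. The groups part for 218381_s_at and 202126_at, both at a difference of -0.20, and for 211090_s_at DMSO 0.6% replicate 3 lies at 8.05, far below the other 5 arrays.

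The HNRNP family had a median difference of 0.07, with 36 of 49 probe sets (73.5%) above 0, and none of its groups parted. HNRNPD (AUF1), which binds AU-rich elements and promotes mRNA decay, had the most probe sets, 6. Their differences ran from -0.17 (200073_s_at, SE 0.15) to 0.12 (205183_at, SE 0.13). The 200073_s_at probe set read 12.42, 12.12 and 12.41 in Bf 140 nM and 12.36, 12.74 and 12.34 in DMSO 0.6%, so that its difference lay in replicate number 2, at -0.62, beside 0.06 in the other pairs. HNRNPK, a poly(C)-binding protein, lay slightly below 0 on both of its probe sets (-0.08, SE 0.14, and -0.12, SE 0.11). HNRNPA1, the classical splicing repressor, lay above 0 on its 3, between 0.09 (SE 0.15) and 0.20 (SE 0.30), but its many processed pseudogenes make cross-hybridisation possible. HNRNPC, which binds uridine tracts of nascent transcripts, had a 200751_s_at probe set at 12.16, 11.99 and 11.94 against 12.04, 12.54 and 10.96, with DMSO 0.6% replicate 3 the lowest. Its other 3 probe sets had differences between -0.06 and 0.00.

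The SRSF family had the same median, 0.07, with 16 of 26 (61.5%) above 0, and the widest span of differences. SRSF1 (SF2/ASF), the founding SR protein, read 11.91, 11.29 and 11.24 in Bf 140 nM and 11.91, 11.77 and 9.54 in DMSO 0.6% on 201742_x_at. The highest difference of the 127 probe sets, 0.41 (SE 0.59, 95% CI -0.99 to 1.80), thus rested on 1 control array and was -0.36 without it. On 211784_s_at SRSF1 read 12.49, 12.18 and 12.66 against 12.50, 12.48 and 12.53, a difference of -0.06 (SE 0.14). SRSF11, a less studied SR-related protein, had the lowest difference, -0.26 (SE 0.28), on 200686_s_at, which read 11.79, 11.39 and 12.22 against 11.72, 11.87 and 12.58. Here DMSO 0.6% replicate 3 was the highest array and not the lowest, and the difference was 0.01 without it.

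Among the SNRP genes 8 of 16 probe sets lay above 0 and 8 below, with a median of 0.00. The Sm proteins, which form the ring around each spliceosomal small nuclear RNA other than U6, had a median of -0.03 over 10 probe sets. Proteins particular to U1 and U2 had one of 0.09 over 6. SNRPA1, the U2-A' protein, had 3 probe sets, at -0.10 (SE 0.18), 0.09 (SE 0.13) and 0.09 (SE 0.11). SNRPB, which encodes SmB, had differences of -0.16 (SE 0.14) and 0.03 (SE 0.15). Both SNRPE probe sets and SNRPG, chosen here after their values were seen, were highest on DMSO 0.6% replicate 3: SNRPG read 13.03, 12.90 and 13.37 in Bf 140 nM and 12.80, 13.10 and 13.68 in DMSO 0.6%. Of the 10 Sm probe sets, 5 lay below the mean of DMSO 0.6% replicates 1 and 2 on that array and 5 above it, from -0.46 (SNRPB, 213175_s_at) to 1.06 (SNRPE, 215450_at).

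The SF3A and SF3B genes had differences between -0.10 and 0.14, with a median of 0.05. SF3B1, the branch-point subunit often mutated in blood cancers, had 4 probe sets between -0.02 (SE 0.14) and 0.08 (SE 0.23). All 4 were lowest on Bf 140 nM replicate 2 or on DMSO 0.6% replicate 3: 201070_x_at, for example, read 10.97, 10.26 and 11.27 against 10.76, 10.82 and 10.71. SF3A1 read 8.90, 9.32 and 8.38 against 8.89, 9.06 and 8.28 on 201357_s_at, with both arrays numbered 3 low, and was higher in 3 of 3 pairs at 0.01, 0.26 and 0.09.

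The PRPF genes with PRP4K had the highest family median, 0.10, with 12 of 17 (70.6%) above 0. Their median was -0.07 without DMSO 0.6% replicate 3. PRPF4, a U4/U6 protein, had both probe sets above 0, at 0.23 (SE 0.14) and 0.30 (SE 0.33), and DMSO 0.6% replicate 3 was the lowest array in both. PRPF31, a U4/U6 protein whose loss causes retinitis pigmentosa, read 10.04, 9.93 and 9.68 against 10.28, 10.25 and 8.47 on 202407_s_at, with a difference of 0.22 (SE 0.46). PRPF8, the scaffold at the catalytic centre, read 11.70, 11.66 and 11.52 against 11.71, 11.84 and 11.36, a difference of -0.01 (SE 0.14).

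The differences were next taken within each replicate number, since the labels give both groups the numbers 1, 2 and 3. The splicing medians were 0.04 in pair 1, -0.20 in pair 2 and 0.28 in pair 3, beside 0.03, 0.00 and 0.04 over all probe sets. In pair 2, 113 of 127 probe sets were below 0, and in pair 3, 100 were above 0. Both held for 95 (74.8%), beside 38.2% of all probe sets and 62.8% of the 11107 probe sets above the median level, whose own pair medians were 0.06, -0.12 and 0.21. Well-expressed probe sets as a whole thus leaned the same way. Only 2 splicing probe sets were higher in all 3 pairs, beside 8.96% of all, and 8 were lower, beside 4.70%.

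By family the contrast between pairs 2 and 3 was -0.21 to 0.35 for HNRNP, -0.26 to 0.40 for SRSF, -0.20 to 0.14 for SNRP, -0.02 to 0.16 for SF3A and SF3B, and -0.22 to 0.50 for PRPF with PRP4K. U2AF, with -0.21 and -0.05, did not turn positive. Of the 127 probe sets, 64 (50.4%) were lowest of the 6 arrays on DMSO 0.6% replicate 3, beside 31.9% of all and 43.4% of those above the median level. On Bf 140 nM replicate 2 it was 44 (34.6%), beside 18.9% and 30.7%. With quantile normalization between arrays the splicing medians in pairs 1, 2 and 3 were -0.02, -0.06 and 0.09.

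**Figure D4:**
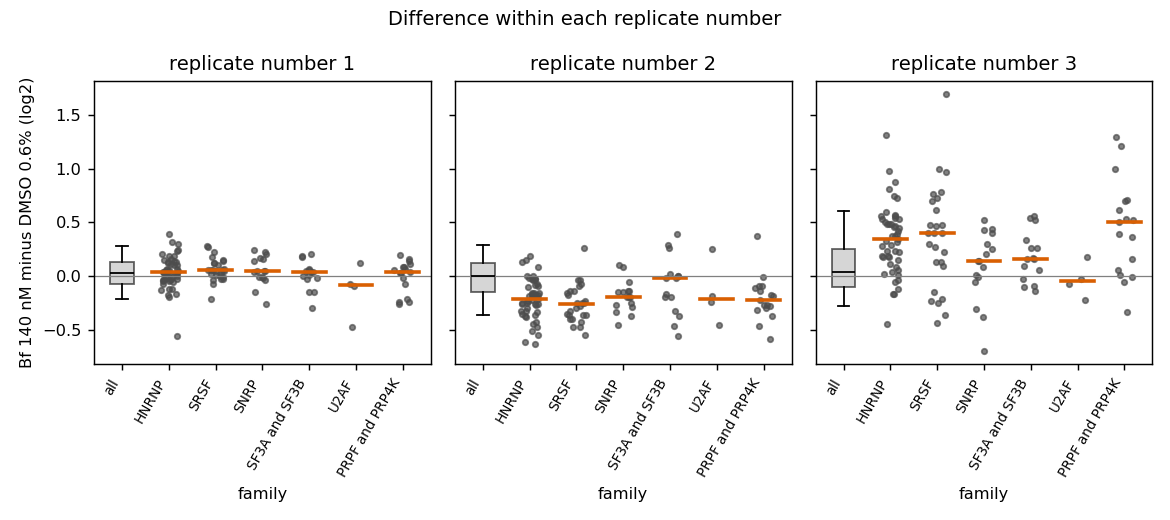
Difference between Bf 140 nM and DMSO 0.6% (log2, vertical axes) within replicate numbers 1, 2 and 3 (panels) for each splicing probe set (points) by family (horizontal axes), with family medians as orange lines. Grey boxes give the quartiles of all probe sets, with whiskers at the 5% and 95% quantiles. Over the splicing probe sets the median is 0.04, -0.20 and 0.28 in the 3 panels, and the third has the widest scatter.

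Probe sets of one gene were then compared with each other. In 20 of the 36 genes with at least 2 probe sets (55.6%) the differences held both signs, beside 52.7% of all 4310 such genes. With 2 probe sets (16 splicing genes) the shares were 43.8% and 41.7%, with 3 (11 genes) they were 45.5% and 62.7%, and with 4 (7 genes) they were 85.7% and 75.9%. The range between the highest and the lowest difference of a gene had a median of 0.14 over the splicing genes and 0.11 over all. It depended on the number of probe sets: with 2 it was 0.08 for both, with 3 it was 0.19 and 0.15, and with 4 it was 0.24 and 0.17. The genes behind these medians were few and the background was not matched for level, so the wider ranges are not read as particular to splicing genes. The widest ranges were those of PRP4K (0.47), SRSF1 (0.47), HNRNPR (0.46), HNRNPH1 (0.46), SRSF11 (0.41) and SRSF3 (0.39). Some genes agreed closely in this difference between group means, among them SNRPD1 (0.02), PRPF6 (0.03), HNRNPU (0.04) and HNRNPK (0.04), the last with both probe sets below 0. They agreed less within replicate numbers 1, 2 and 3. There the ranges were 0.44, 0.25 and 0.07 for HNRNPK and 0.15, 0.25 and 0.32 for PRPF6. For SNRPD1 they were 0.00, 0.14 and 0.08, and for HNRNPU 0.08, 0.13 and 0.21. By replicate number the median range over the splicing genes was 0.20, 0.25 and 0.39, beside 0.16, 0.18 and 0.26 over all.

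DMSO 0.6% replicate 3 was then taken alone. Its departure from the mean of DMSO 0.6% replicates 1 and 2 ranged from -2.30 (SRSF1, 201742_x_at) to 1.06 (SNRPE, 215450_at) over the splicing probe sets, with a median of -0.22 beside -0.03 over all. It was below -1 for 13 (10.2%), beside 2.93% of all and 5.34% of those above the median level. Within a gene, the departures of the probe sets on this array differed by a median of 0.61, beside 0.36 over all genes. They differed by over 1 in 10 of 36 genes (27.8%), beside 13.7%. These 2 backgrounds were not matched for level or for the number of probe sets, so the excess is not read as particular to splicing genes. DMSO 0.6% replicate 3 is the array with the largest 3' excess of beta-actin and GAPDH, whose part in the disagreement was not tested.

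HNRNPH1, which binds G-rich runs near splice sites, had the widest gap between its probe sets on it. Its 213470_s_at probe set read 9.51, 8.99 and 8.77 in Bf 140 nM and 9.53, 9.34 and 7.46 in DMSO 0.6%. Its 213619_at probe set read 13.10, 12.98 and 13.41 against 12.71, 12.99 and 13.86. On DMSO 0.6% replicate 3 the former departed by -1.98 and the latter by 1.01, so that the lowest array of one probe set was the highest of the other. The differences of the 4 HNRNPH1 probe sets were 0.32 (SE 0.52), 0.01 (SE 0.13), -0.02 (SE 0.29) and -0.14 (SE 0.29).

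In SRSF3, the smallest SR protein, probe sets also departed in opposite directions. Its 202899_s_at probe set read 12.83, 12.21 and 12.58 against 12.82, 12.54 and 11.80, whereas 208673_s_at read 10.72, 10.39 and 10.68 against 10.57, 10.81 and 11.13. The departures on DMSO 0.6% replicate 3 were -0.88 and 0.43. HNRNPR, an RNA-binding protein of neuronal mRNA transport, read 11.84, 11.55 and 11.69 against 11.65, 11.72 and 10.88 on 208765_s_at and 12.63, 12.43 and 12.91 against 12.68, 12.78 and 13.08 on 208766_s_at. Its departures there were -0.81 and 0.35, and without this array the range between its probe sets was 0.07 in place of 0.46. For SRSF3 the range without it was 0.15, for SRSF1 0.31 and for SRSF11 0.28. HNRNPH1, with 0.78, and PRP4K, with 0.48, did not narrow, and the median range over the 36 genes was 0.17 without this array and between 0.14 and 0.27 when each array was left out in turn.

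**Figure D5:**
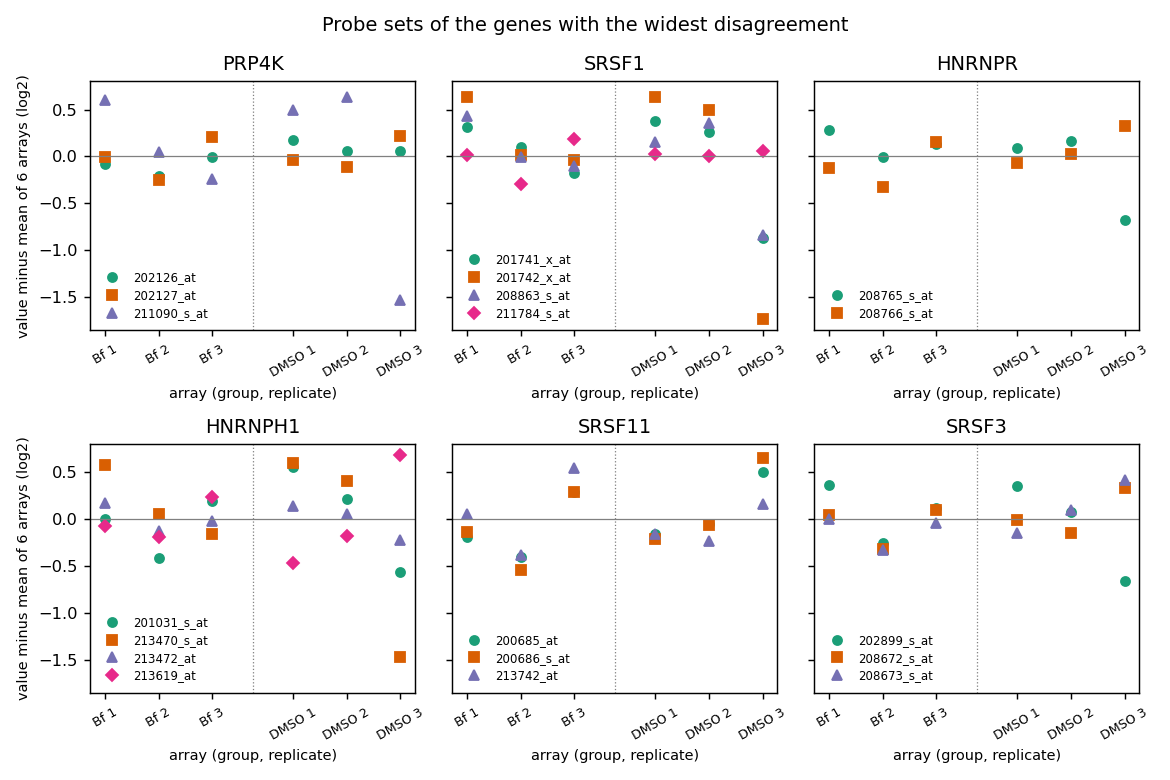
Level of each probe set minus its own mean over the 6 arrays (log2, vertical axes) on each array (horizontal axes) for the 6 splicing genes with the widest range of differences (panels; symbols mark probe sets, dotted lines part the groups). On DMSO 0.6% replicate 3 the probe sets of each of the 6 genes lie farther apart than on any other array, for HNRNPH1 by 2.99 between the lowest and highest departure from DMSO 0.6% replicates 1 and 2. The genes were chosen by differences that include this array, so the choice itself favours a wide spread on it.

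The same disagreement was tested as a contrast within each gene, in which the probe set with the highest mean was subtracted from each other probe set on the same array. None of the 68 contrasts of splicing genes, and none of 7101 over all genes, passed the threshold of 0.10 by limma. At an unadjusted p of 0.05 there was 1 of 68, beside 0.225% of all, and with the replicate number as a block 2 of 68, beside 1.58% of all. The one in both fits was SRSF11, where 213742_at stood 0.41 higher in Bf 140 nM relative to 200686_s_at (SE 0.16, 95% CI 0.03 to 0.79), with an unadjusted p of 0.0365 and an adjusted p of 1.00 by limma. The contrast was positive in all 3 pairs, at 0.14, 0.34 and 0.76. Its groups did not overlap, as in 1 of the 68 contrasts, beside 3.27% of all 7101. The 213742_at probe set itself read 7.91, 7.47 and 8.40 against 7.69, 7.62 and 8.01, with overlapping groups. The widest contrasts, those of PRP4K 211090_s_at (0.47, SE 0.58) and SRSF1 201742_x_at (0.47, SE 0.64), had intervals from -0.90 to 1.85 and from -1.06 to 1.99.

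Other genes of the pathway were described from a list of 100 splicing genes outside these prefixes, of which 83 had 178 probe sets with a single symbol. None passed the threshold, none reached an unadjusted p of 0.05 by limma and in none did the groups part. Their median difference was 0.05, with 124 (69.7%) above 0, and their pair medians were 0.06, -0.18 and 0.23. The share positive in pair 3 and negative in pair 2 was 67.4%, beside 62.8% of all probe sets above the median level, where 88.2% of these probe sets lay. With the replicate number as a block 3 of the 178 reached an unadjusted p of 0.05 by limma, beside 0.414% of all probe sets, each with an adjusted p of 1.00, whereas none of the 127 splicing factor probe sets did. They were 1 probe set each of RBFOX2, a regulator of neuronal and muscle exons (213901_x_at, difference 0.49, SE 0.33), of RBM5, an RNA-binding splicing regulator (201394_s_at, 0.41, SE 0.32), and of LSM5, a subunit of the ring on U6 (202904_s_at, -0.35, SE 0.31). For RBFOX2 the differences in pairs 1, 2 and 3 were 0.20, -0.05 and 1.33 and for RBM5 0.11, 0.05 and 1.07, so that both were largest in pair 3, which holds DMSO 0.6% replicate 3. The other probe sets of these genes had differences of -0.08, 0.06 and -0.03 for RBFOX2, 0.04 and 0.00 for RBM5, and -0.13 and -0.04 for LSM5.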

How the data were processed

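Transcript levels were measured in 6 RNA samples, 3 of Bf 140 nM and 3 of DMSO 0.6%, from separate flasks. The authors took GCOS intensities, applied variance stabilization (justvsn, R version 2.5.0) and deposited the values on a generalised log2 scale, which compresses dim probe sets; the summary of probes into probe sets stays unknown, as the sources used here do not give it. Detection calls were not used here. Arrays have no read depth; their number limits the precision. The table held 22277 probe sets, of which 62 were controls and 22215 were tested; 19064 had 1 symbol. No coordinates or sequences are given, because the values name no build and no probe sequences were used here.

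Differences were fitted by limma version 3.58.1 under R version 4.3.3 as an unpaired two-sided comparison, adjusted by Benjamini-Hochberg over all probe sets or all 7101 within-gene contrasts, with a threshold of 0.10. SAM, the authors' test, was not run. The steps were tested on simulated data. Members, lists and tests were chosen with earlier results of these data known. Named were all U2AF and PRP4K probe sets, the probe sets whose groups did not overlap, the 6 genes with the widest range, per family the gene with most probe sets and the 4 probe sets with the widest range over pairs; other genes were named after their values were seen. Deviations from group means of same-numbered arrays correlated at 0.60, 0.23 and 0.57 over probe sets, each over the minimum of 0.1, so the numbers were taken to pair the arrays, and a fit blocked on replicate number was an alternative. The others were quantile normalization, median centring, a filter on level, an intensity trend and the beta-actin 3' minus 5' difference as a covariate. Further ones left out probe sets ending in _s_at or _x_at, kept 1 probe set per gene or used other thresholds. Each array was also left out in turn. The other array of its replicate number was kept, so these fits were unpaired.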

Additional observations from a re-analysis of the deposited data

How the results depend on the processing

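No splicing probe set and no within-gene contrast passed the threshold under the replicate block, quantile normalization, median centring, the level filter, the intensity trend, the beta-actin covariate, without _s_at and _x_at probe sets, without any 1 array, or at thresholds of 0.05 and 0.20; 1 probe set per gene was run for the medians only. The fit with the replicate block gave 0 of both and changed no call. The 2 probe sets whose groups did not overlap became 5 with quantile normalization and 1 without _s_at and _x_at probe sets. With an array left out they ranged from 2 to 14, where fewer arrays make separation easier. There were 14 without Bf 140 nM replicate 2, 9 without Bf 140 nM replicate 3, and 8, 9 and 12 without DMSO 0.6% replicates 1, 2 and 3. No share over all probe sets is given for these settings. The counts therefore have no background and are not read as a result about the splicing factors. Genes holding both signs numbered 20 of 36 and 6 of the 10 left without _s_at and _x_at probe sets, and 15 to 24 when an array was left out. With an array left out, the median difference lay between -0.07 and 0.10 over all splicing probe sets, -0.07 and 0.12 for HNRNP, -0.09 and 0.16 for SRSF, -0.07 and 0.07 for SNRP, -0.01 and 0.09 for SF3A and SF3B, -0.18 and -0.05 for U2AF, and -0.07 and 0.18 for PRPF with PRP4K. With beta-actin 3' excess as covariate, the overall median was 0.00, the genes with both signs were 27 and the difference of SRSF1 201742_x_at was 0.02. Of 37 named probe sets, 24 changed sign under at least 1 alternative, in 48 of 450 values. Background correction and scan batch could not be varied, since they precede the deposited values.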
